A study of Homo sapiens with 12 samples.

Results

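The interaction of thymoquinone (TQ) and 5-fluorouracil (5-FU) is the part of the response to both drugs that the sum of the single-drug changes does not account for. It was computed for every probe set as the mean log2 signal with both drugs, minus that with TQ, minus that with 5-FU, plus that of the control cells. A value of 0 means that the change with both drugs equals the sum of the single changes on the log2 scale. All 22215 probe sets other than the control probe sets of the array, of 22277 in all, and all 12 arrays entered, and the calculation was repeated with 10 arrays. No measured value was used to choose the probe sets.

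RNA came from RKO cells, a human colorectal cancer line, in 4 groups of 3 arrays. Cells were given 48 h to attach and were harvested after 24 h. One group received 20 µM TQ, one 10 µg/mL (76.8 µM) 5-FU, one both drugs added together at those doses (TQ+5-FU), and one no drug (CON). By their labels the CON cells had no treatment, but by the methods of the study they received DMSO at an equivalent concentration. It is thus not known whether the solvent was matched between CON and the drug groups. The replicates were described as independent biological replicates of this 1 line, and each drug was given at a single dose and time, so an interaction here refers to these doses alone. The epithelial markers KRT18 and EPCAM had log2 signals of at least 11.9 and 8.37 in every array. CDH1, VIL1 and KRT20 stayed at or under 4.50.

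Array 3 of 5-FU and array 2 of TQ+5-FU stood apart from their replicates. Array 3 of 5-FU had a mean correlation of 0.911 with its replicates, against 0.952 and 0.957 for the others of that group, and array 2 of TQ+5-FU had one of 0.978, against 0.984 and 0.990. The signal of the poly-A spike-in controls, added to the RNA before labelling, was 9.47 and 8.94 on the log2 scale in these arrays and 8.22 to 8.97 in the other 10. Marker genes of leukocytes, fibroblasts, endothelium and colon epithelium, taken as mean log2 signals of 23, 16, 9 and 18 genes, ranged over 5.17 to 5.94, 4.98 to 5.94, 4.38 to 5.32 and 5.62 to 6.34, and the highest value of each was that of array 3 of 5-FU. The cause of these differences was not tested, so results are given for 12 arrays and for the 10 arrays without this pair. Fits with the spike-in signal as a covariate are given as alternatives. Removing the arrays farthest from their own groups lowers the estimated error by construction: the median standard error of the interaction was 0.287 with 12 arrays and 0.156 with 10.

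TQ is a quinone of black cumin seed that reacts with thiols and can cause oxidative stress, and 5-FU is a pyrimidine analogue that blocks thymidylate synthase and is built into RNA and DNA. Cells answer such agents through a few transcription factors. p53 responds to DNA damage and ribosomal stress and activates genes of cell cycle arrest and death. NF-kB activates cytokines, survival factors and its own inhibitors. ATF4, which is translated when amino acids run short or proteins misfold, activates amino acid transporters, amino acid synthesis and tRNA charging.

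The fit with 12 arrays called genes of the ATF4 program above the sum and targets of NF-kB below it. Promoters of CHAC1 and ASNS are shown for the element that ATF4 binds with C/EBP partners, TGATGNAA, and that of TNFAIP3 for the NF-kB motif GGNNTTTCC. CHAC1 and TNFAIP3 were among the genes called, whereas ASNS did not pass with 12 arrays. Each shows the 250 bases before a transcription start on the strand of the gene (RefSeq, GRCh38.p14), with the motif, read on either strand, in capitals. Some genes have several starts, and the promoter shown was taken from those of the gene that hold the motif. Its presence there was thus set by that choice. CHAC1 lies on the plus strand (chr15:40953221-40953470), ASNS on the minus strand (chr7:97872409-97872658) and TNFAIP3 on the plus strand (chr6:137867009-137867258).
CHAC1: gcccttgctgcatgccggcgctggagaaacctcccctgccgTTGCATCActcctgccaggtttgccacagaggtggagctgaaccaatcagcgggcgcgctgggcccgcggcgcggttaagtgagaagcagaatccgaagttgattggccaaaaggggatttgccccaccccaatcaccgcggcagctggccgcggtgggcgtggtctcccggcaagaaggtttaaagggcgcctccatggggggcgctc
ASNS: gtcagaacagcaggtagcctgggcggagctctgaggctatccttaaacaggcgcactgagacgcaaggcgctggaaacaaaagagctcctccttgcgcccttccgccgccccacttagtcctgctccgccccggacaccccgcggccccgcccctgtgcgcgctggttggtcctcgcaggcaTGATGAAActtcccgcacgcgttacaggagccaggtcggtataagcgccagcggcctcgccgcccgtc
TNFAIP3: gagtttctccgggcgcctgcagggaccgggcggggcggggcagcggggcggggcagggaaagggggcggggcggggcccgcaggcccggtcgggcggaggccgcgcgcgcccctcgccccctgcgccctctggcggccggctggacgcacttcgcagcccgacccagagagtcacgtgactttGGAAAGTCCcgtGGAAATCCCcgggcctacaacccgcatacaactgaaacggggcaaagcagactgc
Over promoters of 300 bases (the 250 shown and those just after the start), 3.62% of 35116 hold TGATGNAA and 6.26% hold GGNNTTTCC; counted by gene, 4.46% and 7.61% of 27305 genes have a promoter that does. Of 22 genes of the ATF4 list with a promoter in the table, 5 hold the first, and of 21 genes of the NF-kB list, 15 hold the second. A form of the NF-kB motif 1 letter longer had been searched first and matched fewer promoters. These matches describe letters in a window and do not show binding.

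With 12 arrays, 28 of 22215 probe sets (0.126%) had an interaction with an adjusted p under 0.05 by limma. In 8 of them TQ+5-FU lay below the sum of the single changes and in 20 above it, and 23 deviated by at least 2-fold. At an unadjusted p under 0.05 there were 1353 probe sets. The adjusted p of the 28 ran from 0.0306 to 0.0498, close to the threshold. Leaving out any 1 of 10 of the arrays left 0 of them past it, leaving out TQ replicate 3 left 1, and leaving out 5-FU replicate 3 kept all 28. Centring the arrays on their medians left 0 of the 28 past the threshold, and quantile normalization left 18. All 28 kept their sign in each of these fits, and for each of them all 81 choices of 1 array per group gave the same sign. The same was true of 5.41% of all probe sets. With 10 arrays, 2196 probe sets (9.89%) passed, 1007 below the sum and 1189 above, the 28 among them, and 25.8% of all probe sets had the same sign in all 36 choices.

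**Figure D1:**
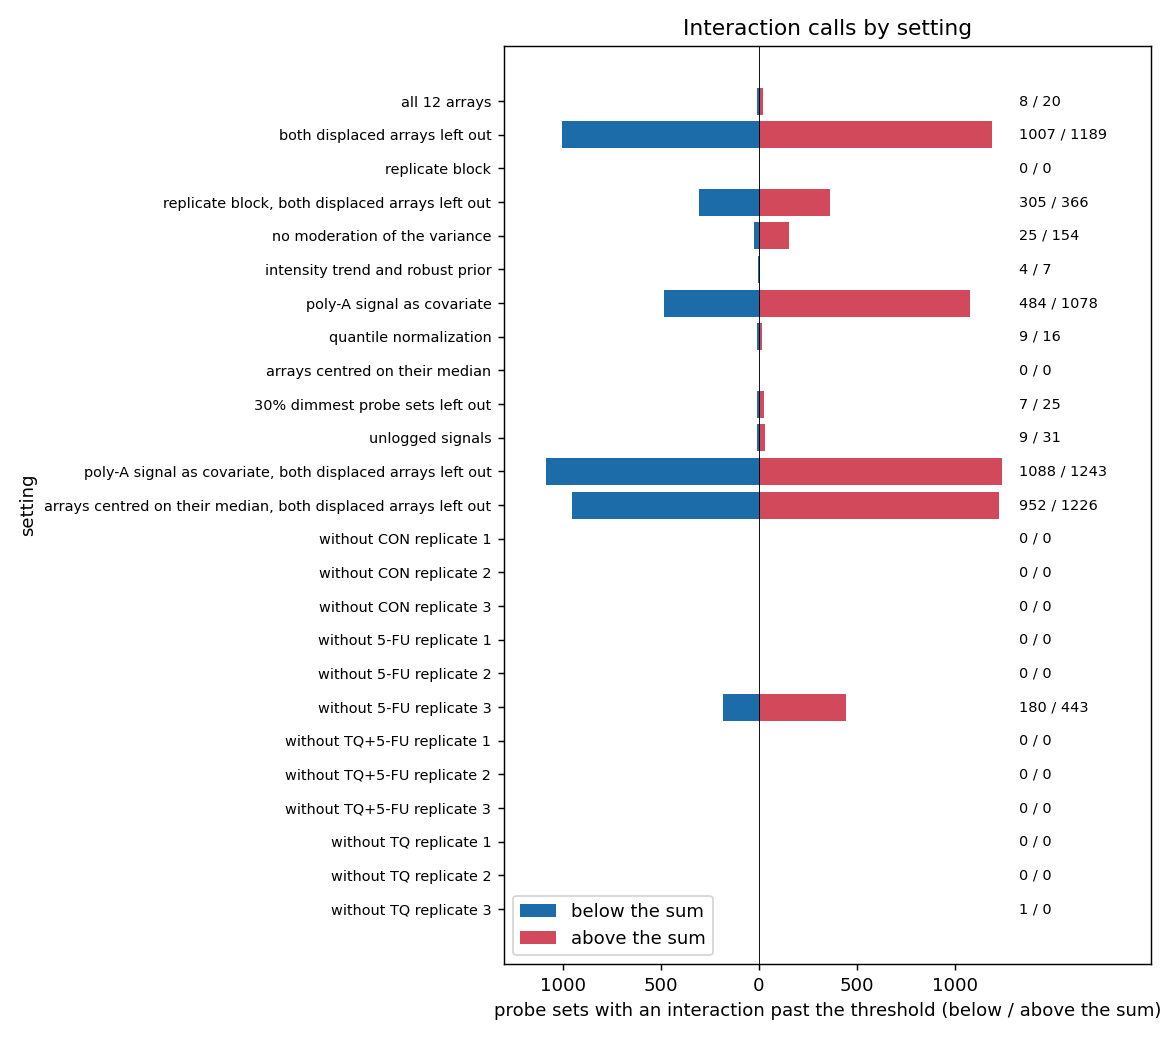
Number of probe sets with an adjusted interaction p under 0.05 in each fit other than that with array weights, which is not drawn. Bars to the left count those below the sum of the single-drug changes, bars to the right those above it, and the numbers give both. The fit with all 12 arrays called 8 and 20, the fit without both displaced arrays 1007 and 1189, and most fits without 1 array called none.

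The deviations were sorted into 3 classes. A probe set is called short-of-sum where TQ+5-FU moved in the direction of the summed single changes but less far, opposite-sign where it moved the other way, and beyond-sum where it moved further. The interaction and the sum use the same TQ, 5-FU and CON arrays with opposite signs, which alone gives their errors a correlation of -0.82 with 12 arrays and -0.79 with 10 and favours the short-of-sum class. Over all 22215 probe sets, called or not, 57.7% were short-of-sum with 12 arrays and 66.0% with 10, so the split of the called ones is a description. With 12 arrays all 28 were short-of-sum. Of these, 8 had risen with 5-FU and 16 had fallen with 5-FU without TQ passing its test, and 4 had fallen with each drug. With 10 arrays 1972 were short-of-sum (89.8%), 207 opposite-sign and 17 beyond-sum. The sum itself passed its test in all 1972 of the first class, in 102 of the second and in 5 of the third. In the opposite-sign class TQ+5-FU differed from control at the threshold in 43 of the 207, and both it and the sum passed in 4. For the others of that class the opposite sign is one of estimates that did not both pass.

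Falling short of the sum took different forms. The combination was set against the drug with the larger single change. In 599 of the 1972 short-of-sum probe sets it had moved back toward control from the level of that drug (adjusted p under 0.05 by limma). In 1370 it did not differ from that drug at this threshold, and in 3 it had gone further. Both drugs passed on their own in 1380, with 628 rising and 737 falling with each.

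**Figure D2:**
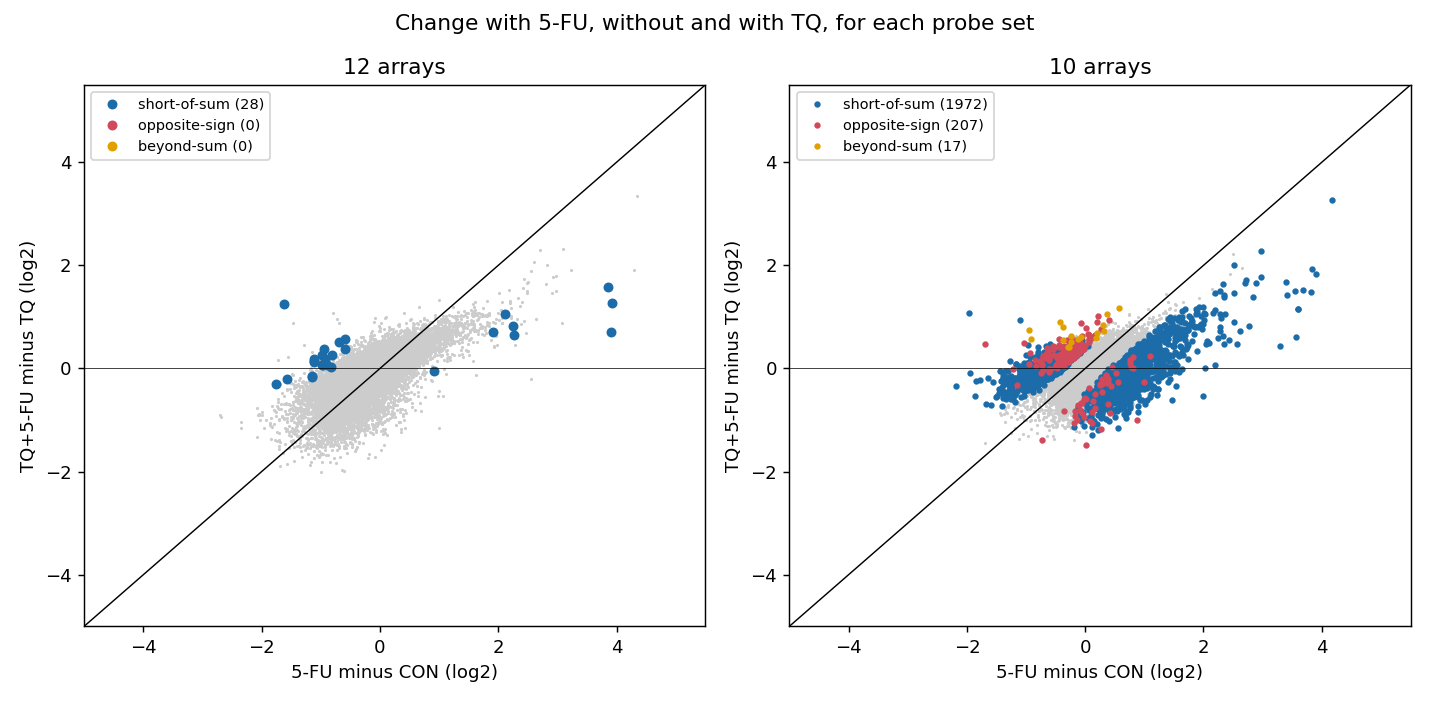
Log2 change with 5-FU in cells without TQ (horizontal axis, 5-FU minus CON) and in cells with TQ (vertical axis, TQ+5-FU minus TQ) for every probe set; the diagonal marks an interaction of 0, and colours mark the classes of probe sets past the threshold. All 28 coloured points of the 12-array panel are short-of-sum, as are 1972 of 2196 in the 10-array panel.

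Of 27 measured genes of the ATF4 list, 3 lay above the sum with 12 arrays and 13 with 10, against 0.125% and 5.88% of all genes. The lists here and below were written with earlier results of these data known, so their counts are a description. CHAC1, a glutathione-degrading enzyme induced by ATF4, had log2 signals of 8.55, 8.56 and 8.41 in CON, 7.16, 6.74 and 6.69 with TQ alone, 6.66, 6.42 and 7.59 with 5-FU alone, and 7.87, 8.49 and 8.01 with TQ+5-FU. The arrays with both drugs all lay above those with either drug alone, whereas the sum predicted a mean of 5.25. The interaction was 2.88 ± 0.40 (SE) with 12 arrays (limma adjusted p = 0.0318) and 3.04 ± 0.19 with 10 (adjusted p = 0.000244).

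ATF4 itself had signals of 13.21, 13.15 and 13.19 in CON, 12.67, 12.52 and 12.53 with TQ alone, at most 12.18 with 5-FU alone, and 12.68, 12.80 and 12.66 with TQ+5-FU. TQ lowered it by 0.61 and 5-FU by 1.12, and with both it was 0.47 below control, above every 5-FU array. Its interaction was 1.25 ± 0.14 (adjusted p = 0.0306). CEBPG, a partner of ATF4, fell by 0.69 with 5-FU, differed from control by -0.03 with both drugs, and had an interaction of 1.21 ± 0.15 (adjusted p = 0.0318).

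ASNS, which makes asparagine, was 11.48, 11.30 and 11.17 in CON, 11.28, 11.36 and 11.30 with TQ alone, 10.25, 10.34 and 9.53 with 5-FU alone, and 11.88, 11.68 and 11.74 with TQ+5-FU. The 5-FU arrays were the lowest and the arrays with both drugs the highest, with no overlap with any other group. Its interaction was 1.73 ± 0.27 with 12 arrays, which did not pass (adjusted p = 0.0505), and 1.52 ± 0.14 with 10 (adjusted p = 0.000608), where it was opposite-sign: 5-FU lowered it by 1.03 and both drugs raised it by 0.49. The cystathionine-cleaving enzyme CTH and the pseudokinase TRIB3, chosen after their values were seen, were opposite-sign by estimate, with interactions of 0.92 and 0.94 with 10 arrays. Their sums of -0.14 and -0.58 did not pass, nor did the change of TRIB3 with both drugs (0.36), so a reversal was not shown for them.

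DDIT4, an inhibitor of mTORC1, fell by 1.73 with TQ, by 1.10 with 5-FU and by 0.79 with both in the 10-array fit, an interaction of 2.04 ± 0.19 (limma adjusted p = 0.000608). SLC7A5, a transporter of large neutral amino acids, fell by 0.59, 1.78 and 0.82, an interaction of 1.55 ± 0.16. With 12 arrays their interactions were 1.87 and 1.36 and did not pass.

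Of the genes of the ATF4 list called with 10 arrays, 10 were short-of-sum and 4 opposite-sign. Below the sum lay 0 with 12 arrays and 1 with 10, against 0.0418% and 5.21%. The one below was ATF3, an early stress factor that rose by 2.88 with 5-FU and by 2.46 with both. The list's median interaction was 0.52 with 12 arrays and 0.56 with 10, beside 0.0044 and 0.044 over all 11963 genes.

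Some genes that charge tRNAs or build ribosomes lay above the sum too, while most of their lists did not pass. The aminoacyl-tRNA synthetases AARS1, CARS1 and YARS1 had interactions of 0.98, 0.97 and 1.03 with 12 arrays (adjusted p = 0.0318 for each), with the combination nearer to control than 5-FU alone. They were the 3 of 17 measured synthetases that passed, against 0.125% of all genes above the sum. With 10 arrays 5 did, against 5.88%, all above the sum, and 7 of the 17 had an interaction below 0. The list's median was 0.34 and 0.19. Of 33 nucleolar genes of ribosome biogenesis, 1 passed with 12 arrays and 8 with 10, all above the sum, beside the same shares of all genes. Their medians were 0.41 and 0.34, and 11 of the 33 had an interaction below 0 with 10 arrays. The one was NOP14, a processing factor of the small subunit, at 0.87 ± 0.13. NAT10, an RNA acetyltransferase, had an interaction of 1.02 ± 0.15. The 52 cytosolic ribosomal proteins gave 0 calls in either fit, with medians of 0.010 and -0.0038.

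Several NF-kB targets rose with 5-FU and rose less when TQ was present. TRAF1, an adaptor of TNF receptors, was 5.99, 5.63 and 6.04 in CON, 6.64, 6.36 and 6.47 with TQ alone, 9.47, 9.44 and 10.50 with 5-FU alone, and 6.91, 7.38 and 7.30 with TQ+5-FU. Every array with both drugs lay more than 2 log2 units below every 5-FU array. The interaction was -3.20 ± 0.38 with 12 arrays (limma adjusted p = 0.0306), the lowest of all called genes, and -2.95 ± 0.21 with 10.

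EBI3, a subunit of the cytokines IL-27 and IL-35, was 5.05, 5.31 and 5.16 in CON, 5.08, 4.65 and 4.75 with TQ alone, 8.80, 8.74 and 9.73 with 5-FU alone, and 5.81, 6.34 and 6.13 with TQ+5-FU. A rise of 3.92 with 5-FU thus stood against 0.92 with both drugs, and the interaction was -2.65 ± 0.36 (adjusted p = 0.0318). TNFAIP3, the inhibitor of NF-kB signaling A20, rose by 1.91 with 5-FU and by 1.21 with both drugs, an interaction of -1.21 ± 0.15 (adjusted p = 0.0318), and its second probe set gave -1.62. CXCL8, the chemokine IL-8, was 7.81, 7.88 and 6.32 with 5-FU and 6.29, 5.78 and 6.04 with both; it passed with 10 arrays alone, at -1.88 ± 0.16 (adjusted p = 0.00049).

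Of 26 measured NF-kB targets, 3 lay below the sum with 12 arrays and 12 with 10, against 0.0418% and 5.21% of all genes, and 0 above it in either fit. Their median interaction was -0.66 and -0.60. The list was written with earlier results of these data known, those of TRAF1 and EBI3 among them, so these counts are no independent evidence. The NF-kB targets rose with 5-FU by a median of 1.17 with 10 arrays, against -0.00715 over all genes, and the 12 called were short-of-sum. All genes are thus no matched background for them. NFKBIA, the inhibitor that NF-kB induces first, had interactions of -0.64 and -0.58 and did not pass in either fit (adjusted p = 0.745 and 0.0707).

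**Figure D3:**
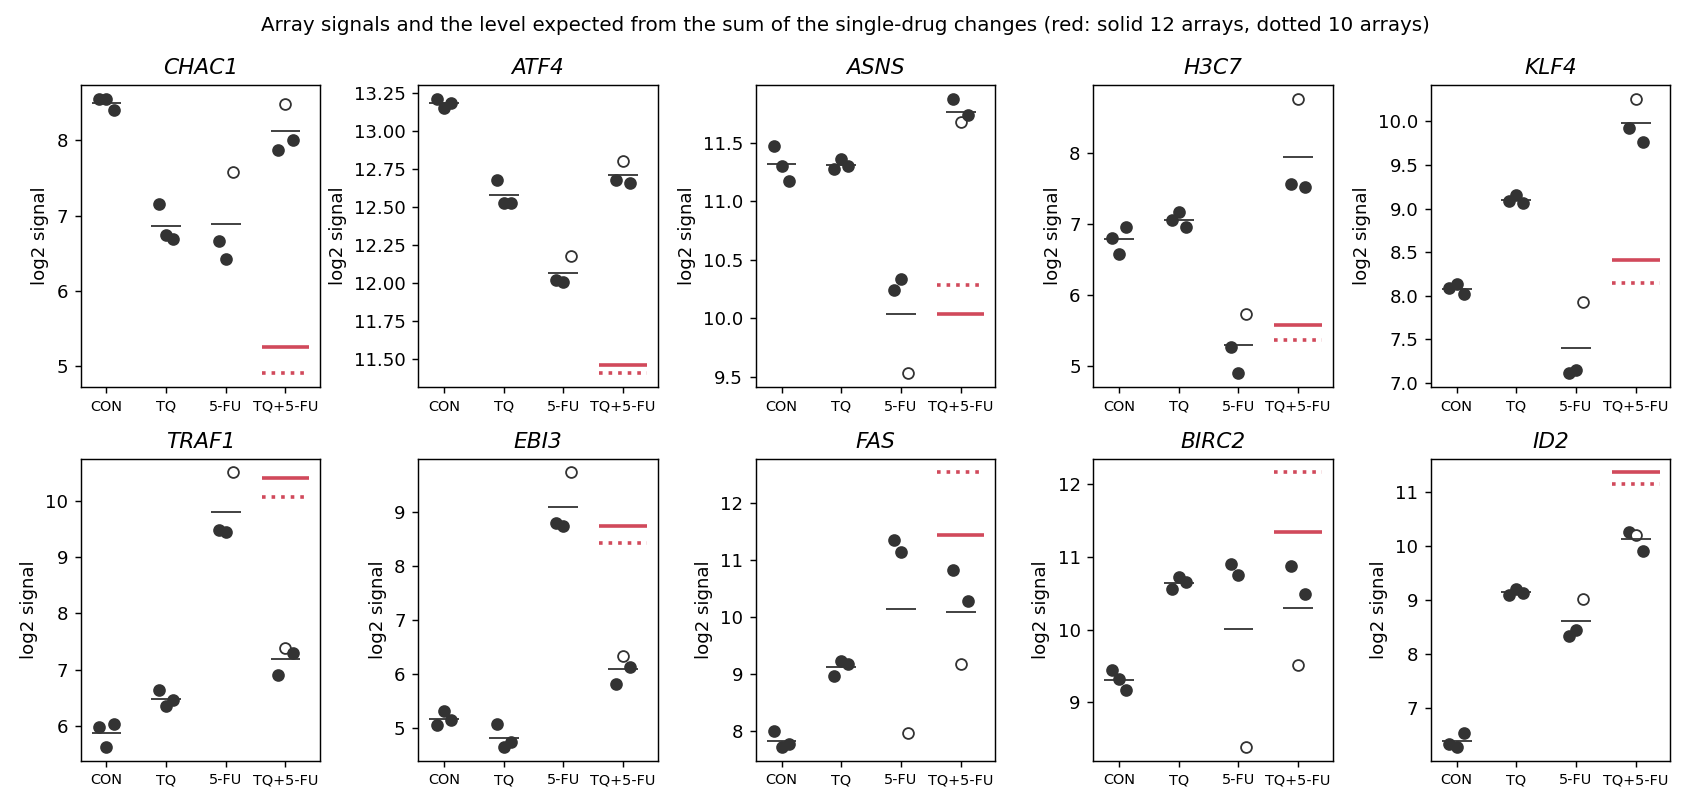
Log2 signals of 10 genes in every array (points; open points are the displaced arrays 5-FU 3 and TQ+5-FU 2) with group means (black lines) and the mean expected with both drugs from the sum of the single changes (red, solid for 12 arrays, dotted for 10). CHAC1, ATF4, ASNS, H3C7 and KLF4 lie above the expected mean in every array with both drugs, and TRAF1, EBI3, FAS, BIRC2 and ID2 lie below it.

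Targets of p53 gave 0 calls with 12 arrays and 14 of 25 with 10, all below the sum, where 0.0418% and 5.21% of all genes lay, with median interactions of -0.52 and -0.61. These targets rose with 5-FU by a median of 1.67 with 10 arrays, against -0.00715 over all genes, and the 14 called were short-of-sum. All genes are thus no matched background for them. GDF15, a stress cytokine, was 7.59, 7.66 and 7.86 in CON, 7.27, 7.17 and 6.97 with TQ alone, 11.84, 11.90 and 12.40 with 5-FU alone, and 10.23, 10.65 and 10.58 with TQ+5-FU. All arrays with both drugs lay between the control and the 5-FU arrays. Its interaction was -0.99 ± 0.25 with 12 arrays (limma adjusted p = 0.248) and -0.90 ± 0.18 with 10 (adjusted p = 0.0153), and its other, dimmer probe set gave -0.45 with 10 and did not pass.

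FAS, the receptor of the FAS ligand, was 8.0, 7.72 and 7.77 in CON, 8.96, 9.23 and 9.17 with TQ alone, 11.34, 11.13 and 7.97 with 5-FU alone, and 10.81, 9.18 and 10.29 with TQ+5-FU. The displaced arrays were the lowest of their groups. With 10 arrays it rose by 1.30 with TQ, 3.41 with 5-FU and 2.72 with both, an interaction of -1.98 ± 0.22 (adjusted p = 0.00152); with 12 arrays the interaction was -1.35 ± 1.06 and did not pass. PLK2, a kinase of the p53 response, had -1.91 ± 0.20 with 10 arrays, and ACTA2, which neighbours FAS, -1.19 ± 0.12, which its other probe set, with a mean signal of 3.46, did not show (-0.0020). CDKN1A, the cell cycle inhibitor p21, had an interaction of 0.20 with a 95% interval of -0.12 to 0.52 in the same fit, so a deviation was not detectable.

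For several genes that each drug raised, the combination did not differ from a single drug at the threshold. The study chose 54 genes as shared between the treatments on these same samples, so their sum is large by that choice and their counts are no independent evidence. Of 51 measured, 0 passed with 12 arrays. With 10 arrays 42 lay below and 1 above the sum, against 5.21% and 5.88% of all genes. The median interactions were -0.79 with 12 arrays and -1.22 with 10. BIRC2, an inhibitor of apoptosis and of NF-kB signaling, was 9.45, 9.31 and 9.17 in CON, 10.56, 10.72 and 10.65 with TQ alone, 10.90, 10.75 and 8.39 with 5-FU alone, and 10.86, 9.51 and 10.49 with TQ+5-FU. Without the displaced arrays, those with both drugs overlapped both single-drug groups, and the means were 1.33 (TQ), 1.51 (5-FU) and 1.36 (both) above control. The interaction was -1.48 ± 0.17 with 10 arrays (limma adjusted p = 0.00196) and -1.05 ± 0.81 with 12.

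CYLD, a deubiquitinase that restrains NF-kB, gave -1.71 ± 0.22 with 10 arrays. Its 6 dimmer probe sets gave -0.20 to -1.04, and 2 of them passed. In the same fit EIF2AK3 (the kinase PERK), STK3 and FZD6 gave -1.11, -1.16 and -1.21, and the second probe set of STK3 gave -0.64 and did not pass. For each of these genes the combination did not differ from the stronger drug at the threshold. MAP3K8 had -1.15 ± 0.35 and did not pass (adjusted p = 0.0635). ERAP2, a peptidase of antigen processing, rose by 1.56 with TQ and 1.99 with 5-FU but by 1.03 with both, an interaction of -2.52 ± 0.29 with 10 arrays (adjusted p = 0.00177). None of them passed with 12 arrays.

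ID2, an inhibitor of differentiation factors, was 6.34, 6.28 and 6.55 in CON, 9.10, 9.20 and 9.12 with TQ alone, 8.34, 8.45 and 9.02 with 5-FU alone, and 10.25, 10.20 and 9.90 with TQ+5-FU. Every array with both drugs exceeded every other array. The rise of 3.73 with both drugs still fell short of the sum, with interactions of -1.24 ± 0.25 with 12 arrays (limma adjusted p = 0.118) and -1.07 ± 0.16 with 10 (adjusted p = 0.00502). On unlogged signals the interaction of ID2 turned positive, so its shortfall holds on the log2 scale alone; FOS, an early transcription factor with -0.81 ± 0.16 with 10 arrays, did the same.

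Other genes called with 12 arrays lay on both sides of the sum. GREB1, a gene known as a target of the estrogen receptor, was 7.44, 7.12 and 7.41 with 5-FU, 5.47, 5.58 and 5.19 with both drugs, and 4.16 or less in all CON and TQ arrays, an interaction of -2.28 ± 0.28 (limma adjusted p = 0.0318). Its other probe sets, at 0.25 and -0.13, did not show it. DGKA, a diacylglycerol kinase, had -1.07 ± 0.15. PTCH1, the hedgehog receptor, and TBL1X, a corepressor subunit, were the 2 of 33 measured Wnt, hedgehog and Notch genes above the sum with 12 arrays, against 0.125% of all genes, and 0 lay below. With 10 arrays 6 lay above and 2 below, against 5.88% and 5.21% of all genes. PTCH1 was 8.61, 8.59 and 8.69 in CON, 7.87, 8.11 and 8.10 with TQ alone, 6.82, 6.76 and 7.04 with 5-FU alone, and 7.78, 7.61 and 7.80 with both, an interaction of 1.46 ± 0.17 that its 2 dimmer probe sets did not show. TBL1X had 1.38 ± 0.16, and its other 4 probe sets gave 0.89 to 1.24. SOX4, a transcription factor of progenitor cells, had 1.08 ± 0.14, and its other 4 probe sets gave 0.27 to 1.05 and did not pass with 12 arrays. MYC, which drives ribosome production, had 1.00 ± 0.17 with 12 arrays and 1.14 ± 0.10 with 10, past the threshold in the second fit alone.

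Histone genes that passed deviated above the sum, and they included each class. Of 40 measured core and linker histones, 0 passed with 12 arrays and 15 with 10, all above the sum, against 5.88% of all genes. They were 6 short-of-sum, 7 opposite-sign and 2 beyond-sum, beside 1201, 120 and 6 of all called genes. H3C7, an H3 gene, was 6.80, 6.58 and 6.96 in CON, 7.05, 7.17 and 6.96 with TQ alone, 5.27, 4.90 and 5.73 with 5-FU alone, and 7.56, 8.76 and 7.51 with TQ+5-FU. The 5-FU arrays were the lowest and those with both drugs the highest, without overlap. Its interaction was 2.36 ± 0.45 with 12 arrays (limma adjusted p = 0.0989) and 2.17 ± 0.19 with 10 (adjusted p = 0.00056). The linker histone gene H1-4 had 1.86 ± 0.22 with 10 arrays. Most histone transcripts lack a poly-A tail, and array 2 of TQ+5-FU, which has the higher spike-in signal, was the highest of its group for H3C7. The fit with 10 arrays, which gave the 15 calls, leaves that array out. With the spike-in signal as a covariate over all 12 arrays, 17 of the 40 lay above the sum, against 669 of 11963 genes. In that fit H3C7 had an interaction of 2.36 (limma adjusted p = 0.00244). An effect of the missing poly-A tail on the histone values was not tested.

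Of genes read from their brightest probe set, 6 were beyond-sum with 10 arrays and 0 with 12, and all 6 lay above the sum. KLF4, a transcription factor of epithelial differentiation, was 8.09, 8.14 and 8.02 in CON, 9.09, 9.15 and 9.06 with TQ alone, 7.11, 7.15 and 7.93 with 5-FU alone, and 9.92, 10.26 and 9.76 with TQ+5-FU. With 10 arrays 5-FU alone lowered it by 0.95, and the highest signals were those with both drugs. Its interaction was 1.70 ± 0.12 with 10 arrays (limma adjusted p = 0.000244) and 1.57 ± 0.29 with 12 (adjusted p = 0.0989). H3C2 had 1.48 ± 0.16, and HEY1, a Notch target, 0.93 ± 0.12. H2AC6 had 0.54 ± 0.11, TXNIP, the thioredoxin-binding protein, 0.61 ± 0.12 and GOT1, an aspartate aminotransferase, 0.41 ± 0.11. In HEY1 and H2AC6 the sum passed its own test, and in the other 4 it did not.

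Levels past both single drugs were found with and without a called interaction. With 12 arrays, 5 probe sets were past control, TQ and 5-FU alike with both drugs, all higher: a pair for ID2, 1 each for GADD45A and GOT1, and 1 of no single gene. The interaction passed in 0 of them with 12 arrays and in 4, all but GADD45A, with 10. With 10 arrays there were 101, 88 higher and 13 lower, and the interaction did not pass in 63. GADD45A, a p53-linked growth arrest gene named after its values were seen, rose by 0.55 with TQ, 0.58 with 5-FU and 1.12 with both, an interaction of -0.016 with a 95% interval of -0.27 to 0.23. HSPA6, an inducible HSP70, rose by 2.95, 0.85 and 3.66, with -0.14 and an interval of -0.65 to 0.37. SNAI1, a repressor of E-cadherin, was 5.86, 6.13 and 6.39 in CON and 8.43, 8.91 and 8.41 with both drugs, with an interaction of 0.30 and an interval of -0.14 to 0.75. On unlogged signals with 10 arrays, HSPA6 and SNAI1 lay above the sum, at 151 and 102 signal units (limma adjusted p = 0.0207 and 0.0165). GADD45A did not pass there (adjusted p = 0.184), and none of these genes passed on unlogged signals with 12 arrays. With 10 arrays, the lack of a called interaction in HSPA6 and SNAI1 thus holds on the log2 scale alone.

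Some mitotic and interferon genes lay below the sum with 10 arrays, and 0 of either list with 12. Of 50 mitotic genes 18 lay below and 2 above the sum, against 5.21% and 5.88% of all genes, with a median interaction of -0.46, and -0.27 with 12. NUSAP1, a spindle protein, had -1.39 ± 0.17 and the checkpoint kinase TTK -1.44 ± 0.28. TTK rose by 1.16 with TQ and differed from control by -0.0025 with both drugs. PLK1, a kinase of mitotic entry, lay above the sum at 0.53 ± 0.15 (limma adjusted p = 0.0485). With the spike-in signal as a covariate over all 12 arrays, 1 of the 50 and 14 of 26 NF-kB targets lay below the sum, against 2.47% of all genes. In that fit 7 of 25 p53 targets, 11 of the study's 51 shared genes and 8 of 32 interferon-stimulated genes lay below it. Of 32 interferon-stimulated genes 6 lay below the sum, against 5.21% of all genes, and 0 above with 10 arrays, with a median of -0.20. SPRY2, a feedback inhibitor of ERK signaling, was opposite-sign by estimate at 0.95 ± 0.11, but its change of 0.11 with both drugs did not pass.

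**Figure D4:**
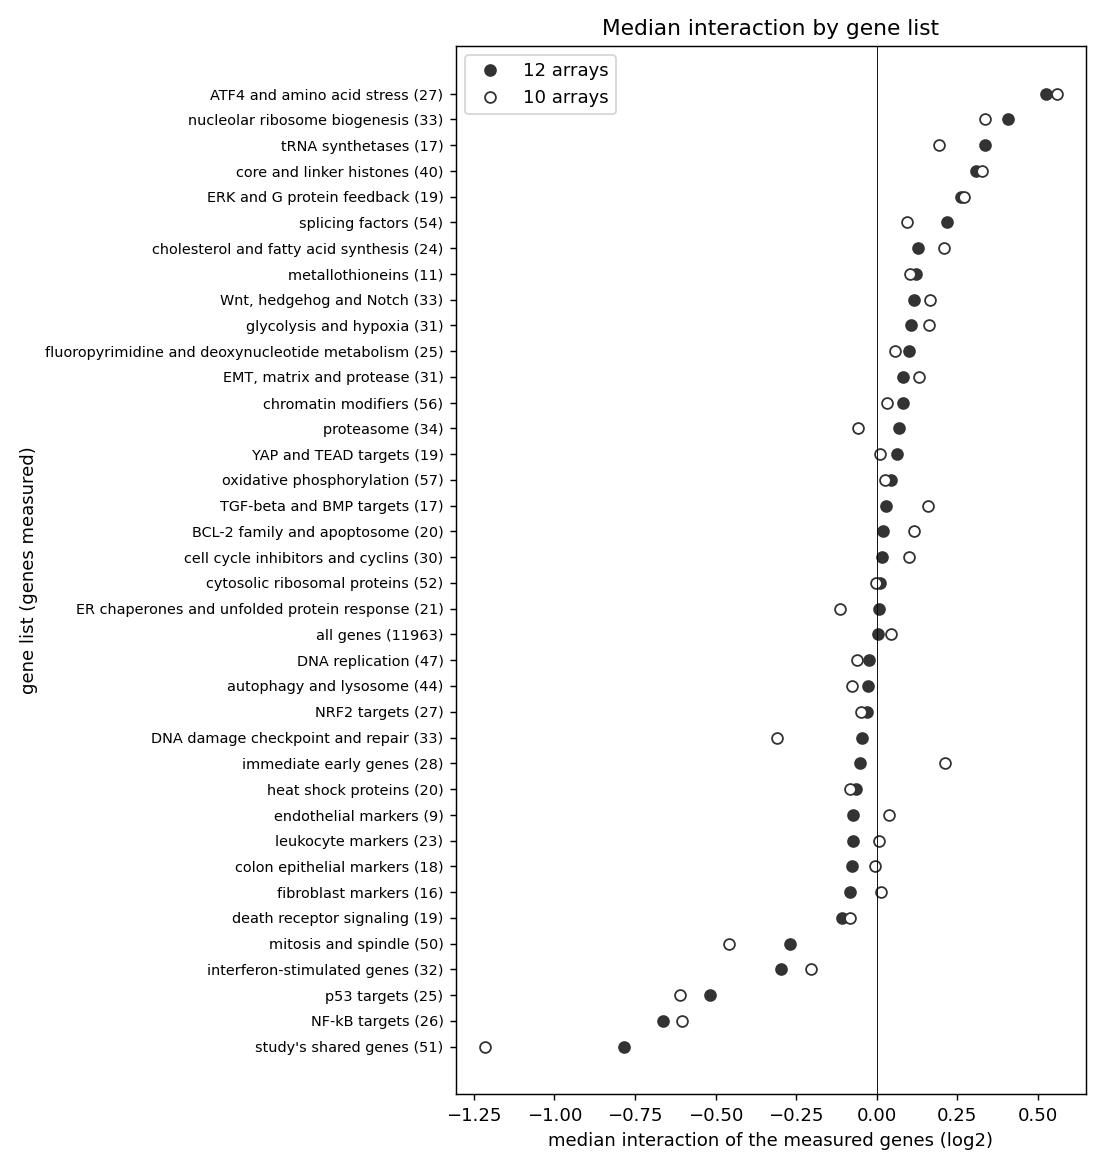
Median interaction (log2) of the measured genes of each list with 12 arrays (filled) and 10 arrays (open), beside that of all 11963 genes; the number measured follows each name. The ATF4 list has the highest median, at 0.52 and 0.56, and the NF-kB and p53 lists lie at -0.66 and -0.60 and at -0.52 and -0.61, whereas some lists near 0 change sign between the fits.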

How the data were processed

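The authors normalized the GeneChip Human Genome U133A 2.0 arrays with RMA and deposited log2 signals, which were used without further scaling. The labels name Affymetrix Expression Console for this step and the methods name another program. RMA quantile-normalizes arrays together, so a change shared by most transcripts would be hidden. One mean per group was fitted to 22215 probe sets with limma 3.58.1 in R 4.3.3, with empirical Bayes moderation, two-sided tests and Benjamini-Hochberg adjustment over all probe sets for each contrast, at 0.05. The fit was checked on simulated data. Errors are standard errors of the fit. The number of arrays limits the precision.

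A gene was read from its brightest probe set among the 19064 assigned to 1 gene by the platform annotation; 1043 name several genes and 2108 none. The spike-in signal is the mean of 24 poly-A probe sets. Genes named are up to 10 per direction and fit with the largest interactions, up to 5 per class, lead and leading genes of 37 lists, and the study's focal genes; the text names a part of them, and BHLHE41, TWNK, CTH, TRIB3, TXNIP, GOT1 and GADD45A besides. The members and lists were chosen with earlier results of these data known. Alternatives were other sets of arrays, the replicate number as a block, other variance estimates and array weights, the spike-in signal as a covariate, other scaling, a filter on dim probe sets and unlogged signals. Figures were drawn with matplotlib 3.10.9.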

Additional observations from a re-analysis of the deposited data

Results flagged for a closer look

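The change with 5-FU differed between cells with and without TQ, by the interaction test of limma over all 12 arrays, in 20 genes. Below the sum were TRAF1 at -3.20, EBI3 at -2.65, GREB1 at -2.28, TNFAIP3 at -1.21 and DGKA at -1.07. Above it, among genes of amino acid stress and tRNA charging, were CHAC1 at 2.88, ATF4 at 1.25, CEBPG at 1.21, YARS1 at 1.03, AARS1 at 0.98 and CARS1 at 0.97. The others above it were PTCH1 at 1.46, TBL1X at 1.38, TUBAL3, a tubulin, at 1.33, TMEM268 at 1.24, SOX4 at 1.08, NAT10 at 1.02, the circadian repressor BHLHE41 at 1.02, the mitochondrial helicase TWNK at 0.97 and NOP14 at 0.87. Their adjusted p ran from 0.0306 to 0.0498. Centring the arrays on their medians left none of them past the threshold. Single arrays were not tested as outliers, with 3 a group.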

How the results depend on the processing

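The 28 probe sets called with 12 arrays kept their sign in every fit listed here that tested them. The fit without both displaced arrays called 2196 probe sets, 1007 below and 1189 above the sum, with 1972 short-of-sum, 207 opposite-sign, 17 beyond-sum and 101 past both single drugs, and 33 lists held a called gene in place of 6. Leaving out 1 array at a time gave 0 to 623 calls, 0 to 180 below and 0 to 443 above the sum, 0 to 542 short-of-sum, 0 to 73 opposite-sign, 0 to 8 beyond-sum and 0 to 90 past both drugs; the upper end was without 5-FU replicate 3, and the other fits called 0 or 1 deviations. Same-numbered arrays showed no common deviation (correlations of deviations from group means of -0.836 to 0.859, and 4 of 12 arrays closest to their own number). With 3 arrays a group and displaced arrays of different numbers, this check cannot exclude that the numbers pair the samples. With the replicate block there were 0 calls of any class and 1175 at an unadjusted p under 0.05; with the replicate block and without both displaced arrays there were 671, 305 below and 366 above, with 608 short-of-sum, 52 opposite-sign, 11 beyond-sum and 53 past both drugs.

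Without moderation there were 179 calls, 25 below and 154 above, with 159 short-of-sum, 17 opposite-sign, 3 beyond-sum and 24 past both drugs. An intensity trend with a robust prior gave 11, 4 below and 7 above, all 11 short-of-sum and 1 past both drugs. The poly-A signal as a covariate gave 1562, 484 below and 1078 above, with 1228 short-of-sum, 311 opposite-sign, 23 beyond-sum and 265 past both drugs. Array weights, whose estimation did not converge and which ran from 0.0063 to 110, gave 12023, 4780 below and 7243 above, with 7989, 3553 and 481 in the classes in the order above and 2296 past both drugs; nothing is based on them. Centring arrays on their medians gave 0 calls of any class and 991 at an unadjusted p under 0.05. Quantile normalization gave 1 opposite-sign probe set, the filter on the 30% dimmest gave 1, and unlogged signals gave 31 above the sum, 2 opposite-sign and 20 past both drugs. With a deviation of at least 2-fold, 0 were past both drugs. Added after the data were seen, and without both displaced arrays, were the covariate, with 2331 calls, 1088 below and 1243 above, 1981, 325 and 25 in the classes and 142 past both drugs, and centring, with 2178 calls, 952 below and 1226 above, 1965, 198 and 15 in the classes and 95 past both drugs. The cause of these differences was not tested.

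Signs turned in genes that had not passed with 12 arrays, and in other probe sets. Leaving out 1 array at a time moved the interaction over -0.033 to 0.25 for CDKN1A, -1.71 to 0.34 for FZD6, -0.56 to 0.062 for HSPA6, -0.0079 to 0.11 for GADD45A and -0.073 to 0.47 for SNAI1. GADD45A was at -0.016 without both displaced arrays, -0.0033 with the covariate and -0.0074 with centring besides, and -0.070 with array weights. HSPA6 was at 0.019 with the replicate block and without both displaced arrays. On unlogged signals with 12 arrays, in signal units, ID2 was at 237, FOS at 97.2 and HSPA6 at 214. Other probe sets were at -0.055 for PTCH1, 0.25 for GREB1 and 0.26 for HSPA6.

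With 3 arrays a group, small deviations are missed: the median standard error of 0.287 compares with a smallest called deviation of 0.87.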
